A study of Mus musculus with 6 samples.

Results

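The genes described here build and run the primary cilium, the single non-motile antenna of most vertebrate cells. The set was defined by name: every gene whose mouse symbol is Ift or Bbs followed by a number, which gave 22 genes, and 20 further genes listed singly. It holds 42 of the 54146 genes in the count tables, and all 42 passed the filter on low counts that left 16897 genes to be tested. Tctn2 carries a non-coding label in the gene annotation and a protein-coding one in RefSeq, and it was kept because it was listed by name.

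The 2 groups of the series were sorted cells of the mouse embryonic cortex, 3 libraries of cells given a miR-3607 precursor hairpin (Mir) and 3 of cells given a scrambled one (Scr). In both groups the hairpin plasmid (U6 promoter, 1 µg/µl) was electroporated in utero at E14.5 (embryonic day) with a second plasmid, pCAG-GFP (0.7 µg/µl), which marks the cells that took up DNA with green fluorescent protein. GFP-positive cells were sorted at E15.5, 24 hours later, and each library pooled the cells of 2 embryos, so that n = 3 counts pools and p-values measure the spread between pools. The animals were wild type, and the labels give the strain of both groups as ICR in 1 field and as C57BL/6 in another. The comparison asks how extra miR-3607 changes the RNA of the sorted cells, which held markers of progenitors, of neurons and of other cell types.

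Radial glia, the progenitors that line the ventricle, carry a primary cilium that reaches into the ventricular fluid, and the cilium is taken apart before the cell divides. Intraflagellar transport (IFT) moves cargo along the ciliary microtubules, outwards with kinesin and back with the motor dynein-2. Of its complexes, IFT-B is tied mainly to the outward journey and IFT-A mainly to the return. The BBSome, an adaptor coat, and small GTPases sort membrane proteins into and out of the cilium. The transition zone at its base acts as the gate, and the Hedgehog pathway depends on the cilium.

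Depth was 15847663, 15674262 and 14671557 counts in genes in Mir replicates 1 to 3, and 12724511, 13960806 and 16684038 in Scr replicates 1 to 3. Levels are given as CPM, counts per 1000000 after normalization. Correlations of log2 CPM across genes between libraries ran from 0.947 to 0.985. Scr replicate 2 stood apart, with correlations of 0.947 to 0.974 to the other libraries. Reads per cilium gene and library ranged from 50 for Tctn1 to 2377 for Ift46. The library kit does not mark the strand, so reads of overlapping genes cannot be assigned with certainty. The exons of Inpp5e overlap those of Pmpca over 20.3% of their length, and those of Tctn1 overlap Hvcn1 over 19.0%.

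Most cilium genes had a slightly higher mean in Mir, and none of them passed the test. Of the 42 genes, 35 (83.3%) had a log2 fold change above 0, against a background of 48.8% of all genes tested. The other 7 genes had one below 0 (background 51.2%). The median log2 fold change, Mir over Scr, was 0.17 over the 42 genes and -0.01 over all genes tested, and single cilium genes lay between -0.50 (Gpr161) and 0.61 (Ift80). edgeR's quasi-likelihood test with Benjamini-Hochberg adjustment over all genes tested called 0 of them higher, beside 0.0% of all genes, and 0 lower, beside 0.00592%. At an unadjusted p under 0.05, edgeR gave 6 higher (14.3%, background 6.57%) and 2 lower (4.76%, background 7.93%). DESeq2, run as an alternative, called 1 higher (2.38%, background 1.86%), Ift122, and 0 lower (background 2.51%), and limma-voom called 0 in either direction (background 0.0% and 0.0%). In bulk libraries fewer cells of a type and less RNA per cell cannot be told apart.

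The groups did not overlap for 9 of the 42 genes. Ift122, Ift57, Ift74, Ift46, Bbs9, Arl13b and Tctn3 were higher in every Mir library than in every Scr library, 7 genes or 16.7% beside a background of 9.72%. Arl3 and Gpr161 were lower in every Mir library, 2 genes or 4.76% beside a background of 10.3%. Of the 42 genes, 35, 36 and 31 lay above the Scr mean in Mir replicates 1, 2 and 3. In the Scr libraries, in that numbering, 26, 14 and 24 did. Each Scr library is part of that mean, so the counts of the groups are not alike. Such counts were not made over all genes tested, whose median level relative to the Scr mean ran from -0.018 to 0.010 over the libraries. The library with the fewest cilium genes above the Scr mean was Scr replicate 2. By this count Mir replicate 3 was the Mir library nearest to Scr.

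**Figure D1:**
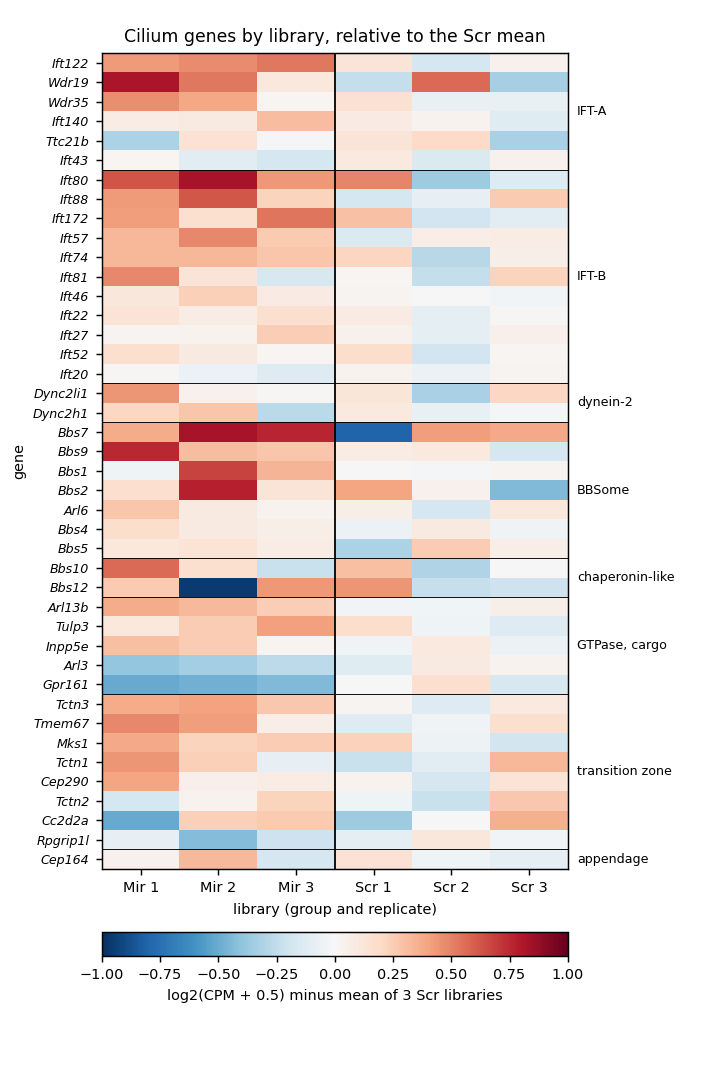
Level of each of the 42 cilium genes (rows, grouped by role) in each library (columns, Mir replicates 1 to 3 left and Scr replicates 1 to 3 right), coloured as log2(CPM + 0.5) minus the mean of the 3 Scr libraries. Warm colours prevail in the Mir columns, where 35, 36 and 31 genes lie above the Scr mean, while Arl3 and Gpr161 are blue in all 3.

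The summed level of the 42 genes was 1685, 1646 and 1550 CPM in Mir replicates 1 to 3, and 1506, 1403 and 1484 CPM in Scr replicates 1 to 3. Each Mir sum exceeded each Scr sum, by the least margin in Mir replicate 3. Median levels per library relative to the Scr mean, on log2(CPM + 0.5), were 0.27, 0.23 and 0.10 in the Mir libraries and 0.04, -0.05 and 0.02 in the Scr libraries.

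**Figure D2:**
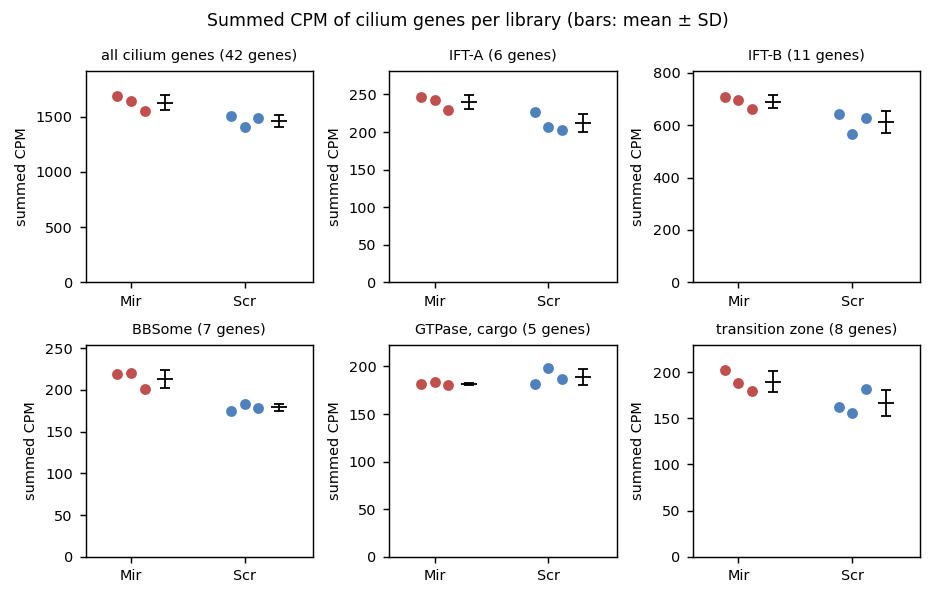
Summed CPM per library for all 42 cilium genes and for the 5 larger role groups (points, Mir left and Scr right; bars, mean ± SD of 3 libraries). The groups separate for the whole set, IFT-A, IFT-B and the BBSome, and overlap for the GTPase and cargo group and for the transition zone.

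Among the 6 genes of IFT-A, 4 had a higher and 2 a lower mean in Mir, and the median log2 fold change was 0.23. Ift122 (ENSMUSG00000030323, chr6:115853470-115926699, GRCm38) encodes a core subunit whose loss in mice disturbs Hedgehog signalling. It was at 55.1, 56.9 and 59.2 CPM in Mir replicates 1 to 3, and at 44.8, 36.3 and 42.3 CPM in Scr replicates 1 to 3. The groups did not overlap, and Scr replicate 2 was the lowest library. Its log2 fold change was 0.47 ± 0.11 (SE). The adjusted p was 0.206 in edgeR and 0.0220 in DESeq2. That DESeq2 call was lost without Mir replicate 1, 2 or 3 (adjusted p = 0.115, 0.199 and 0.0703) and without Scr replicate 3 (adjusted p = 0.0789), and it held without Scr replicate 1 (0.0127) or 2 (0.0453). Over the other edgeR settings its adjusted p ran from 0.132 to 0.587.

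Ift140, another core IFT-A subunit, was at 30.5, 30.8 and 36.0 CPM in Mir and at 30.7, 29.7 and 26.6 CPM in Scr libraries, with overlap (log2 fold change 0.16 ± 0.12, edgeR adjusted p = 0.588). Wdr19 (IFT144) averaged 13.98 ± 3.46 CPM in Mir and 10.1 ± 3.88 CPM in Scr (SD, n = 3 each), and Wdr35 (IFT121) averaged 51.9 ± 8.31 CPM in Mir and 42.1 ± 3.90 CPM in Scr (SD, n = 3 each). The means that were lower in Mir were those of Ttc21b (IFT139), with a log2 fold change of -0.07, and Ift43, with -0.09. Both are peripheral subunits of IFT-A. For the whole complex the summed level was 247, 243 and 229 CPM in Mir and 226, 207 and 203 CPM in Scr libraries, without overlap.

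Among the 11 genes of IFT-B, the mean was higher in Mir for 10 and lower for 1 (median log2 fold change 0.16, or 0.29 without Scr replicate 3). Ift57 (ENSMUSG00000032965, chr16:49699233-49765126), a peripheral subunit, was at 56.8, 62.9 and 54.1 CPM in Mir and at 40.6, 47.1 and 47.3 CPM in Scr libraries. All Mir libraries lay above all Scr libraries (log2 fold change 0.36 ± 0.11, edgeR adjusted p = 0.244). A non-coding gene, Gm15518, covers 7.86% of its exon length. Ift80 (ENSMUSG00000027778, chr3:68892499-69004570), another peripheral subunit and a gene of skeletal ciliopathy in humans, was at 27.9, 31.9 and 24.3 CPM in Mir and at 25.2, 13.8 and 16.3 CPM in Scr libraries. Its groups overlapped, since Scr replicate 1 lay above Mir replicate 3. It had the largest log2 fold change of the 42 genes, 0.61 ± 0.24, with an edgeR adjusted p of 0.312.

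Ift88, the core subunit whose mutation gave the classic mouse model of lost cilia, was at 12.5, 14.4 and 10.8 CPM in Mir and at 8.02, 8.62 and 11.1 CPM in Scr libraries. The groups overlapped through Mir replicate 3 and Scr replicate 3 (log2 fold change 0.44 ± 0.21, edgeR adjusted p = 0.379). Ift172, a large peripheral subunit, was at 26.5, 22.1 and 28.8 CPM in Mir and at 24.3, 17.2 and 18.3 CPM in Scr libraries, also with overlap (log2 fold change 0.37 ± 0.18, edgeR adjusted p = 0.392). Ift74 and Ift46, core subunits, had no overlap at small log2 fold changes of 0.30 and 0.15 (edgeR adjusted p = 0.355 and 0.457), and without Scr replicate 2 that of Ift74 was 0.17. Ift81, the partner of Ift74 in binding tubulin, and Ift22, Ift27 and Ift52 lay between 0.09 and 0.16 and overlapped. Ift20, which also acts at the Golgi, had the one lower mean of the complex (log2 fold change -0.06). Summed levels of IFT-B were 708, 697 and 661 CPM in Mir and 643, 566 and 628 CPM in Scr libraries.

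The dynein-2 genes differed less than their spread. Dync2h1, the motor heavy chain, was at 42.9, 45.0 and 30.7 CPM in Mir and at 39.7, 35.3 and 36.6 CPM in Scr libraries. Mir replicate 3 was the lowest of the 6 libraries (log2 fold change 0.09 ± 0.16, edgeR adjusted p = 0.835). Dync2li1, the light intermediate chain, averaged 30.8 ± 5.43 CPM in Mir and 27.5 ± 5.25 CPM in Scr (SD, n = 3 each).

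All 7 genes of the BBSome group, which here includes Arl6, the GTPase that recruits the coat to membranes, had a higher Mir mean, at a median log2 fold change of 0.36, which was 0.16 without Mir replicate 2. The summed level was 219, 220 and 201 CPM in Mir and 175, 184 and 179 CPM in Scr libraries, without overlap. Bbs9 (ENSMUSG00000035919, chr9:22475715-22888280), a structural subunit, was at 41.5, 30.3 and 29.7 CPM in Mir and at 25.7, 26.2 and 21.7 CPM in Scr libraries. Mir replicate 1 was far above the other libraries, and the groups did not overlap (log2 fold change 0.47 ± 0.17, edgeR adjusted p = 0.288). Without Mir replicate 1 the log2 fold change was 0.30.

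Bbs7, its partner in the core of the coat, averaged 24.0 ± 3.94 CPM in Mir and 16.0 ± 6.65 CPM in Scr (SD, n = 3 each), and overlapped through a single Mir library at 19.5 CPM. Scr replicate 1 was lowest, at 8.34 CPM, and without it the log2 fold change was 0.27, against 0.58 with all libraries. Bbs4, a subunit tied to the centriolar satellites, was at 52.4, 49.2 and 48.2 CPM in Mir and at 44.5, 49.4 and 45.3 CPM in Scr libraries (log2 fold change 0.11 ± 0.10, edgeR adjusted p = 0.649). Bbs1 and Bbs2 had log2 fold changes of 0.37 and 0.36 with standard errors of 0.22 and 0.27 (0.18 and 0.12 without Mir replicate 2), and Arl6 and Bbs5 of 0.13 and 0.09. The chaperonin-like genes Bbs10 and Bbs12, which help to assemble the coat, had log2 fold changes of 0.19 ± 0.28 and -0.0036 ± 0.39.

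**Figure D3:**
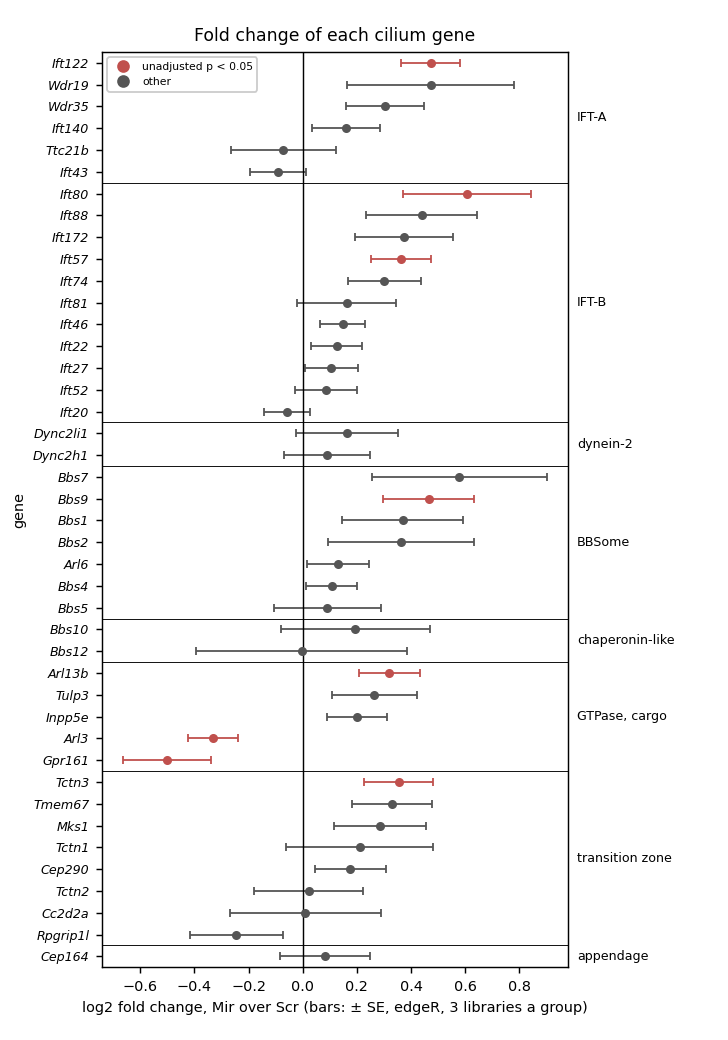
Log2 fold change, Mir over Scr, of the 42 cilium genes (points) with a standard error derived from edgeR's F statistic (bars), grouped by role. Red marks an unadjusted p under 0.05. Of the 42 points, 35 lie right of 0, and the leftmost are Gpr161 at -0.50 and Arl3 at -0.33.

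The GTPase and cargo genes had means on both sides of Scr, 3 higher and 2 lower in Mir. Arl13b (ENSMUSG00000022911, chr16:62793685-62847040) encodes the GTPase of the ciliary membrane that activates Arl3, and was at 30.8, 29.9 and 28.2 CPM in Mir and at 23.2, 23.3 and 24.7 CPM in Scr libraries. The groups were apart (log2 fold change 0.32 ± 0.11, edgeR adjusted p = 0.282). Arl3 (ENSMUSG00000025035, chr19:46531096-46573198), which releases lipid-anchored cargo inside the cilium, was at 68.6, 70.8 and 74.8 CPM in Mir and at 82.5, 95.4 and 91.8 CPM in Scr libraries. Here every Mir library was below every Scr library (log2 fold change -0.33 ± 0.09, edgeR adjusted p = 0.224).

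Gpr161 (ENSMUSG00000040836, chr1:165295789-165326745), a ciliary receptor that holds Hedgehog signalling down, was at 10.2, 10.3 and 10.7 CPM in Mir and at 14.6, 16.4 and 13.1 CPM in Scr libraries. The Mir libraries lay close together and below all Scr libraries (log2 fold change -0.50 ± 0.16, edgeR adjusted p = 0.260). Tulp3, the adaptor that carries Gpr161 into the cilium with IFT-A, was at 17.9, 19.9 and 22.2 CPM in Mir and at 18.8, 16.1 and 15.1 CPM in Scr libraries, with overlap (log2 fold change 0.26 ± 0.16, edgeR adjusted p = 0.479). Inpp5e, the phosphatase that sets the lipids of the ciliary membrane, was at 53.7, 52.2 and 44.6 CPM in Mir and at 42.6, 46.7 and 41.8 CPM in Scr libraries, with overlap (log2 fold change 0.20 ± 0.11, edgeR adjusted p = 0.454). These 5 genes together summed to 181, 183 and 180 CPM in Mir and 182, 198 and 186 CPM in Scr libraries, and overlapped.

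**Figure D4:**
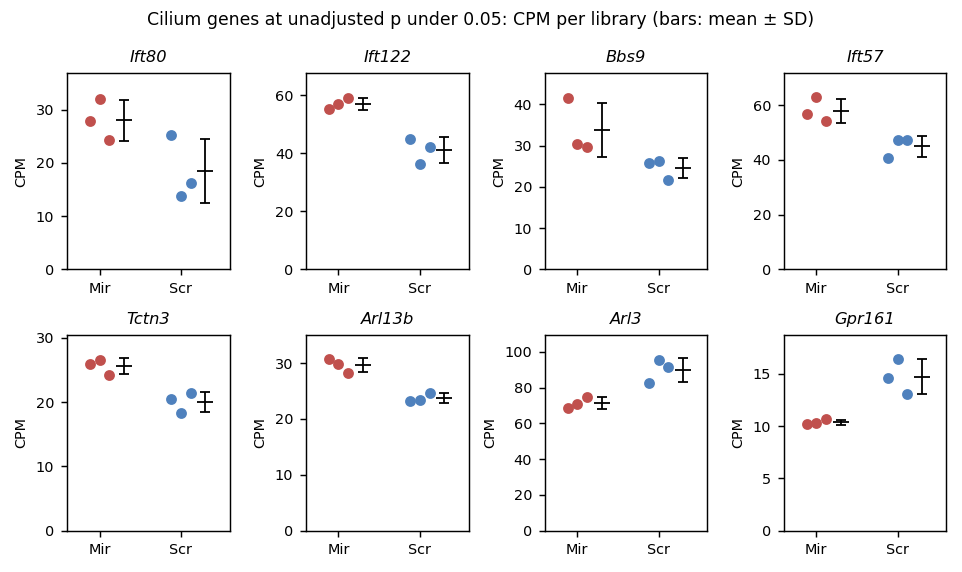
CPM in each library (points, Mir left and Scr right) with mean ± SD of 3 libraries (bars) for the 8 cilium genes at an unadjusted edgeR p under 0.05, each axis starting at 0. Ift80 overlaps between groups, the other 5 higher genes do not, and Arl3 and Gpr161 lie lower in every Mir library.

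Of the 8 transition zone genes, 7 had a higher Mir mean and 1 a lower (median log2 fold change 0.19, or 0.12 without Scr replicate 2). Tctn3 (ENSMUSG00000025008, chr19:40596446-40612233), a tectonic of the gate's membrane complex, was at 25.9, 26.6 and 24.2 CPM in Mir and at 20.4, 18.2 and 21.4 CPM in Scr libraries, without overlap (log2 fold change 0.35 ± 0.13, edgeR adjusted p = 0.290). Its relatives Tctn1 and Tctn2 had log2 fold changes of 0.21 ± 0.27 and 0.02 ± 0.20. Cep290, which links the microtubules to the membrane, was at 73.0, 57.4 and 58.4 CPM in Mir and at 56.8, 49.2 and 61.1 CPM in Scr libraries, with overlap (log2 fold change 0.18 ± 0.13, edgeR adjusted p = 0.576).

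Rpgrip1l, a scaffold of the gate, was at 12.7, 9.84 and 11.6 CPM in Mir and at 12.6, 14.6 and 13.2 CPM in Scr libraries. It had the one lower mean of the transition zone, and Mir replicate 1 overlapped with Scr replicate 1 (log2 fold change -0.25 ± 0.17, edgeR adjusted p = 0.542). Tmem67 and Mks1, of the same membrane complex as the tectonics, had log2 fold changes of 0.33 ± 0.15 and 0.29 ± 0.17, and Cc2d2a of 0.01 ± 0.28. Cep164, the distal appendage protein that docks the basal body, was at 22.8, 27.8 and 19.6 CPM in Mir and at 24.4, 21.4 and 20.5 CPM in Scr libraries (log2 fold change 0.08 ± 0.17, edgeR adjusted p = 0.857).

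Levels per length of exon spanned a wide range within the set. The length was the union of all annotated exons, and the order of the genes can depend on that choice. This union was 2490, 1651, 1525 and 12428 bases for Arl3, Ift43, Ift20 and Ift80. Their transcripts with the longest coding sequence held 794, 734, 1092 and 4014 windows of 50 bases. Levels per transcript length were not computed. In Scr, Ift20 was highest at 49.0 ± 1.66 CPM per kb, followed by Ift43 at 40.6 ± 3.45 and Arl3 at 36.1 ± 2.67 CPM per kb (SD, n = 3). Ift43 and Arl3 lay within their joint spread in Scr, whereas in Mir Arl3 stood at 28.7 ± 1.25 CPM per kb beside 38.1 ± 2.69 for Ift43. Ift27, Arl6 and Ift52 came next in Scr, at 27.6 ± 1.59, 26.5 ± 2.64 and 25.1 ± 3.195 CPM per kb, and did not differ beyond their spread. The lowest levels were those of Rpgrip1l (0.774 ± 0.0970 in Mir, 0.918 ± 0.0704 in Scr), Wdr19 (1.24 ± 0.307 in Mir, 0.894 ± 0.344 in Scr) and Tctn1 (0.659 ± 0.130 in Mir, 0.568 ± 0.133 in Scr), all in CPM per kb. The median of the 42 genes in Scr, 4.39 CPM per kb, lay near the median of 5.25 over the 16887 tested genes with a length. Subunits of 1 complex did not share 1 level: within IFT-B, Ift20 was at 49.0 and Ift80 at 1.48 ± 0.484 CPM per kb in Scr.

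**Figure D5:**
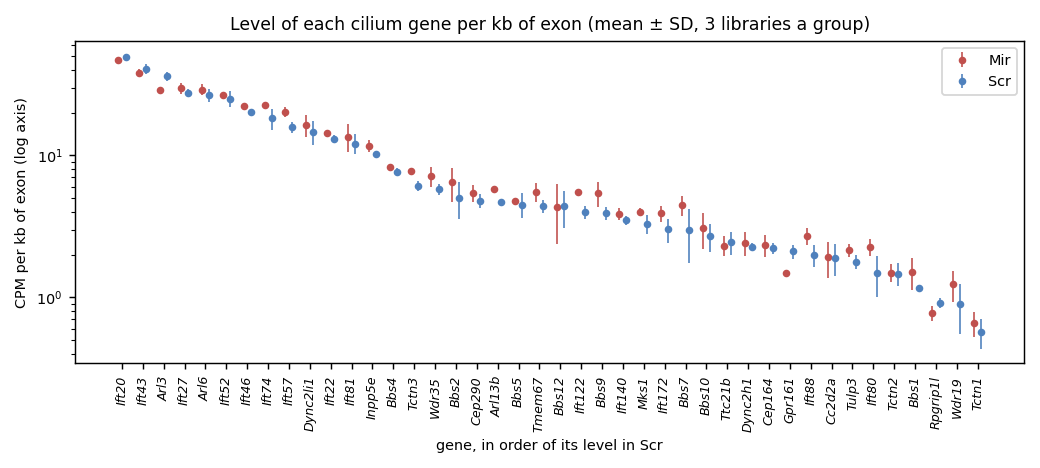
Level of each cilium gene in CPM per kb of exon (log axis; mean ± SD of 3 libraries; Mir red and left, Scr blue and right), ordered by the level in Scr. The genes run from Ift20 at 49.0 to Tctn1 at 0.568 CPM per kb in Scr, and the groups of most genes overlap.

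The match sites of the hairpin strand are shown because they are where its sequence can be set beside these genes. The strand after the hairpin's loop, read from the oligonucleotide in the labels up to its run of 7 T and written as DNA 5′ to 3′, is given first, with the seed (bases 2 to 8) in capitals. The others are the sites in 3′ UTRs of cilium genes, each with 8 bases on either side, the match in capitals, on the strand of the gene in GRCm38.
hairpin strand: gCATGTGAtgaagcaaatcag
Arl13b (chr16:62794227-62794250, minus strand): cagtcaggTCACATGAtgctagtt
Bbs9 (chr9:22888110-22888132, plus strand): gcctttagTCACATGcgcttata
Ift57 (chr16:49764525-49764547, plus strand): ctatgcatTCACATGgagtcagc
Ift46, first site (chr9:44791417-44791439, plus strand): ttgcccagTCACATGccagcata
Ift46, second site (chr9:44792294-44792316, plus strand): cctgggacTCACATGgtggaagg
Wdr19 (chr5:65258264-65258286, plus strand): cttcatgtTCACATGgactcctc
Bbs10 (chr10:111301630-111301652, plus strand): cgaggtctTCACATGccatctta

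The 7-base match to the whole seed is TCACATG. A match to seed bases 2 to 7 followed by an A is written CACATGA, and the 8-base match that holds both is TCACATGA. Each gene was searched in the transcript whose annotated coding sequence is longest (GENCODE M21). They occurred in the 3′ UTR of 6 of 38 cilium genes with a UTR to search (15.8%), against 15.6% of the 20597 genes searched and 17.3% of the 12713 of them that were tested. The full 8-base match occurred in Arl13b alone, 1 of 38 (2.63%), beside 2.63% of all genes. In coding sequence, 5 of 41 cilium genes (12.2%) held a match, beside 3067 of 21901 genes in all. The share of cilium genes with a site was therefore near the background on each count.

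All 6 genes with a 3′ UTR site had a higher mean in Mir, as did 35 of all 42. Their median log2 fold change was 0.34, and it was 0.16 over the 32 cilium genes searched without a site. Over all tested genes the medians were -0.03 for the 2197 with a site and 0.0021 for the 10516 without. Arl13b, Bbs9, Ift46 and Ift57, described above with all Mir libraries above all Scr libraries, are among the 6. Such separation was seen in 7 of all 42 genes (16.7%) and in 9.72% of all genes tested. It was not counted over all tested genes with a site, and whether a site went with a higher level was not tested. No site was found for Arl3 or Gpr161, lower in every Mir library. Their searched transcripts held only 794 and 1778 windows of 50 bases, beside 2490 and 6962 bases of exon in all. Much of their exon sequence was therefore not searched.

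Promoters of cilium genes are known targets of the RFX factors, which bind the X-box. Its consensus was searched as the letters GTTNCC, then A and T, then the reverse complement of the first letters, so that both strands read the same. The search covered 250 bases before to 50 after each start site in the RefSeq promoters of GRCm38.p6, in which 37 of the 42 genes had a matched promoter. Up to 2 mismatches at the 12 fixed letters were allowed. The 7 matches found are printed to show how close they come to the consensus, with the X-box in capitals, 5′ to 3′ on the strand of the gene.
Bbs7 (chr3:36613489-36613518, minus strand): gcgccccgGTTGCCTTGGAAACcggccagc
Mks1 (chr11:87853183-87853212, plus strand): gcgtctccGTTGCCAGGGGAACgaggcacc
Tctn2 (chr5:124598679-124598708, plus strand): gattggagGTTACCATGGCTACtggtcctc
Bbs1 (chr19:4906605-4906634, minus strand): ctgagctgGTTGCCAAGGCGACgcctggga
Ift22 (chr5:136908109-136908138, plus strand): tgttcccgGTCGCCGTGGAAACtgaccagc
Ift57 (chr16:49699199-49699228, plus strand): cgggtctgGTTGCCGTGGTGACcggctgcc
Tctn1 (chr5:122264411-122264432, minus strand): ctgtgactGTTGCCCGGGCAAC

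The first 3 have 1 mismatch and the others 2. Thus 7 of 37 cilium genes (18.9%) held a match, beside 3.76% of the 17492 coding genes in the table and 3.50% of its 32851 promoters. All 7 had a higher mean in Mir, with log2 fold changes from 0.02 for Tctn2 to 0.58 for Bbs7, and 35 of all 42 genes did so. A match is a run of letters and was not tested as a binding site.

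The RFX factors themselves had means on both sides of Scr. Rfx3, a main ciliary member of the family in mice, was at 61.4, 53.0 and 57.9 CPM in Mir and at 81.6, 77.2 and 73.0 CPM in Scr libraries, with all Mir libraries below all Scr libraries (log2 fold change -0.43 ± 0.10, adjusted p = 0.205 by edgeR and 0.0174 by DESeq2). Rfx2, low in these cells, was at 3.63, 4.22 and 4.27 CPM in Mir and at 1.95, 1.01 and 1.63 CPM in Scr libraries (log2 fold change 1.40 ± 0.32, edgeR adjusted p = 0.206, no adjusted p from DESeq2). Rfx1, named after its values were seen, had a log2 fold change of 0.60 ± 0.15 (adjusted p = 0.214 by edgeR and 0.0340 by DESeq2). Of the 6 tested members of the family, 4 had a higher mean in Mir and 2 a lower, and edgeR called none of them.

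The other cilium genes of the pathway were read from lists made from textbook knowledge, and edgeR called 0 genes in any of them. In the other transition zone genes, 13 of 14 had a higher Mir mean (median log2 fold change 0.22), and 4 were higher at an unadjusted p under 0.05 (6.57% of all genes tested). B9d1, of the gate's membrane complex, was at 24.4, 28.5 and 31.5 CPM in Mir and at 17.8, 17.6 and 19.4 CPM in Scr libraries (log2 fold change 0.62 ± 0.14, adjusted p = 0.206 by edgeR and 0.0177 by DESeq2). Its groups did not overlap.

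Genes of cilium disassembly and of its restraint had the highest median of the cilium lists, 0.41, with 9 of 10 genes higher in Mir and 6 of them at an unadjusted p under 0.05 (6.57% of all genes tested). Nek2, a mitotic kinase of the centrosome, was at 47.8, 42.0 and 66.8 CPM in Mir and at 24.8, 23.6 and 35.8 CPM in Scr libraries (log2 fold change 0.89 ± 0.22, adjusted p = 0.212 by edgeR and 0.0121 by DESeq2). Nedd9, the scaffold that activates Aurora A at the cilium, was at 117, 102 and 89.6 CPM in Mir and at 86.7, 66.0 and 67.5 CPM in Scr libraries (log2 fold change 0.49 ± 0.14, edgeR adjusted p = 0.240). Several genes of this list, Aurka and Plk1 among them, are also genes of mitosis.

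Smo, the Hedgehog transducer that moves into the cilium when the pathway is on, was at 73.4, 81.6 and 71.3 CPM in Mir and at 55.7, 50.0 and 48.9 CPM in Scr libraries, without overlap (log2 fold change 0.55 ± 0.10, adjusted p = 0.171 by edgeR and 0.00128 by DESeq2). Sufu, a negative regulator of the Gli factors, had a log2 fold change of 0.42 ± 0.20 and overlapped. Of the 13 ciliary receptor and signalling genes tested, 8 had a higher and 5 a lower mean in Mir. Their median was 0.14, near that of the 42 genes.

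The remaining lists were more mixed. All 6 genes of the ciliary GTPase cycle had a higher mean in Mir (median 0.19; Unc119b 0.43 ± 0.15, Arl2bp 0.29 ± 0.11), while the other IFT and motor genes split 9 to 6 (median 0.05; Dynll1 -0.22 ± 0.08, Ttc30b 0.54 ± 0.19). Ttc30b has near-identical copies, so its value is uncertain. Among the ciliogenesis and appendage genes, 10 of 14 had a higher mean in Mir (median 0.02), with Fbf1 at 0.37 ± 0.09 and Odf2 at 0.41 ± 0.10. DESeq2 called 3 genes of that list higher, Fbf1 (adjusted p = 0.0472), Odf2 (0.0265) and Cep89 (0.0328), and 1 lower, Rab11a (0.0416). Over all genes with an adjusted p, DESeq2 called 1.86% higher and 2.51% lower. Cep89 and Rab11a, named after their values were seen, stood at 0.56 ± 0.15 and -0.28 ± 0.08, each without overlap between groups. DESeq2 called 0 genes in the GTPase cycle, the IFT and motor list and the other BBSome genes. Of the 4 other BBSome genes, Ttc8 had a value of 0.33 ± 0.12 and the other 3 had a lower mean. These are all log2 fold changes, Mir over Scr. At an unadjusted edgeR p under 0.05 there were 2 higher in the GTPase cycle, 2 higher and 1 lower among IFT and motor genes, 4 higher and 2 lower among ciliogenesis and appendage genes, and 1 higher among the BBSome genes, beside 6.57% of all genes higher and 7.93% lower.

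Motile cilia are formed by ependymal cells later in life. Of 15 listed genes of motile cilia 8 could be tested, and the summed level of the list was 52.6 to 57.6 CPM in Mir and 46.9 to 51.4 CPM in Scr libraries. Foxj1, the master regulator of motile cilia, was at 1.34 to 3.19 CPM in Mir and at 0.542 to 2.24 CPM in Scr libraries. Of the 8 tested genes, 5 had a higher and 3 a lower mean in Mir. DESeq2 called 1 of the list higher (background 1.86%) and 0 lower (background 2.51%). This was Rsph9, named after its values were seen, at 16.0, 17.4 and 13.6 CPM in Mir and 10.4, 8.76 and 8.97 CPM in Scr libraries. Its groups did not overlap (log2 fold change 0.74 ± 0.17, adjusted p = 0.212 by edgeR and 0.0216 by DESeq2).

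Markers of cell state and of other cell types also differed in mean between the groups, and their part in the result was not tested. The mean was higher in Mir for all 12 genes of G2/M, with a summed level of 2561 to 2984 CPM in Mir and 1563 to 2461 CPM in Scr libraries. So did 11 of 12 radial glia markers, whose sums of 2271 to 2976 CPM in Mir and 1586 to 2295 CPM in Scr libraries overlapped, and all 6 intermediate progenitor markers, at 2192 to 3184 CPM in Mir and 1433 to 2180 CPM in Scr libraries. The sums of cortical neuron markers were 4175 to 4705 CPM in Mir and 5086 to 6435 CPM in Scr libraries, with 7 of 9 genes lower in Mir. Scr replicate 2, the library in which the fewest cilium genes lay above the Scr mean, was also lowest for the G2/M, radial glia and intermediate progenitor sums and highest for the cortical neuron sum.

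Markers of other cell types were uneven between libraries. All 8 inhibitory neuron markers had a lower mean in Mir, with sums of 199 to 466 CPM in Mir and 357 to 1290 CPM in Scr libraries. The same held for all 8 endothelial markers, at 1.21 to 33.7 CPM in Mir and 12.04 to 200 CPM in Scr libraries, and for all 6 microglia markers, at 10.1 to 37.9 CPM in Mir and 16.98 to 52.1 CPM in Scr libraries. The 5 tested blood genes also had lower means in Mir, and the blood list summed to 0.703 to 567 CPM in Mir and 246 to 846 CPM in Scr libraries. Choroid plexus markers summed to 0.447 to 2.58 CPM in Mir and 1.51 to 16.1 CPM in Scr libraries. Scr replicate 2 had the highest of the 6 sums for inhibitory neuron, endothelial, blood and choroid plexus markers. For microglia markers the highest sum was that of Scr replicate 3. No listed marker was at 0 in all 6 libraries.

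Scr replicate 2, the library that stood apart, and Mir replicate 3, the Mir library nearest to Scr, were also left out together. Mir replicate 3 was named nearest to Scr from the cilium genes themselves, so leaving it out can by itself widen their difference. The values of this fit are therefore no independent support. Of the 42 cilium genes, 33 then had a log2 fold change above 0 (background 49.6%) and 9 one below (background 50.4%), and their median was 0.19. edgeR called 0 of them, with 8 higher (background 8.55%) and 1 lower (background 9.55%) at an unadjusted p under 0.05. In the 4 remaining libraries 16 genes lay wholly above Scr (background 25.0%) and 5 wholly below (background 25.4%). Ift122 kept its direction, with a log2 fold change of 0.36 and an edgeR adjusted p of 0.155, as did Arl3 at -0.32 and Gpr161 at -0.43. With all 6 libraries and no filter on low counts, 10 cilium genes were higher (background 4.5%) and 2 lower (background 6.33%) at an unadjusted edgeR p under 0.05. That background is over 30638 genes, beside the 16897 past the filter, which all 42 cilium genes passed. At a minimum of 50 counts in 3 libraries, 6 cilium genes were higher (background 7.45%) and 2 lower (background 8.87%).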

How the data were processed

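The authors deposited raw counts of reads per gene, 1 table a library. The submitters' processing notes list HISAT2 2.1.0 along with HTSeq 0.11.0 and also DESeq2 1.18.1, on mm10 (GRCm38). The annotation and the strand setting were not given in the sources used. Per the labels, libraries were made with the SMART-seq v4 kit from RNA with an integrity number above 9.5 and read as 50 bp single reads. Reads carry no molecular identifiers, so counts are not independent molecules.

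Each table ended in 5 summary lines that name no gene, which entered neither library sizes nor tests. Reads in no feature made up 28.8 to 31.6% and reads not uniquely aligned 39.3 to 44.4%, and 21.9 to 23.6% of reads were assigned to genes.

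All genes passing filterByExpr were fitted with edgeR 4.0.16 in R 4.3.3 (quasi-likelihood F test, two-sided, group as the sole term, TMM normalization), with Benjamini-Hochberg adjustment and a threshold of 0.05. Standard errors of log2 fold changes were derived from this test, as the absolute log2 fold change divided by the square root of F. The biological coefficient of variation was 23.6% with 3.60 prior degrees of freedom. Within groups, pairs of libraries differed by a chi-square of 8.23 to 28.2 per degree of freedom, far above sampling noise. CPM are counts per 1000000 after that normalization, and per-kb levels divide by the union of exons in GENCODE M21, whose gene table gave symbols for 54079 of the IDs.

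DESeq2 1.42.0, limma-voom (limma 3.58.1), other scalings, other filters, each library left out and a replicate block were the alternatives. DESeq2 gave no adjusted p for 3612 tested genes. The labels do not say that equal replicate numbers share an animal or a day, and the fit has no block.

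The cilium genes and all gene lists were chosen with earlier results of these data known. Values for every library are given for genes at an unadjusted edgeR p under 0.05 and for 12 genes named as anchors of their role, whatever their result. For the other cilium lists, the genes with the smallest p are named, except 1 that is not reported here.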

Additional observations from a re-analysis of the deposited data

How the results depend on the processing

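No alternative in edgeR or limma-voom called a cilium gene, and DESeq2 on all 6 libraries without a block called 1 higher (background 1.86%). The count at an unadjusted p under 0.05 was 10 higher without a filter on low counts (background 4.5%, over 30638 genes). It was 6 with the filter (background 6.57%) and 6 at a minimum of 50 counts in 3 libraries (background 7.45%). Without Scr replicate 2 and Mir replicate 3 the count was 1 lower (background 9.55%), and 16 genes lay wholly above and 5 wholly below Scr (backgrounds 25.0% and 25.4%), as fewer libraries leave more genes apart. Leaving out 1 library at a time gave 3 to 9 higher (3 without Mir replicate 1; all genes 3.7 to 6.73%) and 2 lower (all genes 4.45 to 11.3%), 10 to 15 genes wholly above (all genes 12.6 to 17.9%) and 2 to 4 wholly below (all genes 13.5 to 19.6%), 33 to 35 positive fold changes, and a median log2 fold change of 0.15 to 0.22. The X-box share was 0.0%, 8.11% and 32.4% of cilium genes at 0, 1 and 3 mismatches, against 0.114%, 1.01% and 14.1% of coding genes, and the 8-base seed match alone left 1 gene.

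Of the 42 genes, 31 kept their direction under all 15 alternative settings, and the 11 that did not had log2 fold changes of at most 0.19. Cc2d2a became -0.029 with limma-voom, -0.011 with upper-quartile factors, -0.0017 at a minimum of 50 counts, -0.0011 with the replicate block and -0.14 without Scr replicate 2 and Mir replicate 3. Bbs12 became 0.012 with no filter. Without Scr replicate 2 and Mir replicate 3, Ift27 became -0.018, Tctn2 -0.20 and Ttc21b 0.012. With 1 library left out, log2 fold changes ran from -0.022 to 0.29 for Ift81, -0.21 to 0.051 for Ttc21b, -0.039 to 0.36 for Bbs10, -0.16 to 0.23 for Cc2d2a, -0.055 to 0.18 for Cep164, -0.011 to 0.23 for Dync2h1, -0.28 to 0.34 for Bbs12, -0.10 to 0.18 for Tctn2, -0.056 to 0.23 for Bbs5 and -0.0080 to 0.17 for Ift52. The cause was not tested.

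The replicate block gave 0 calls, 7 higher (all genes 6.9%) and 2 lower (all genes 7.16%) at an unadjusted p under 0.05, and a median of 0.17. Deviations of same-numbered libraries correlated at 0.25, -0.15 and -0.09, and not every library correlated best with its own number. DESeq2 with the block lost Ift122 (adjusted p = 0.0915). Without the block and without Scr replicate 1, DESeq2 called Ift122 and Ift80 higher and Arl3 lower (all genes 1.9% higher and 3.28% lower). With 3 pools a group, a p that misses the threshold does not show that values did not differ.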
